A study of Mus musculus with 10 samples.

Results

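The CDK inhibitor genes of mouse, the CIP/KIP genes Cdkn1a, Cdkn1b and Cdkn1c and the INK4 genes Cdkn2a, Cdkn2c and Cdkn2d, were followed across 5 groups of medulloblastoma cells. They were taken by gene symbol from the 3 deposited count tables. Of these 6 genes, 5 were held by at least 1 table, among 13976 genes held by the tables in all. Cdkn1a, Cdkn2a and Cdkn2d were in all 3 tables. Cdkn1b was held by the SMB56-shSufu and GDC-0449 tables and not by the SMB56 THZ1 table. Cdkn2c was in both THZ1 tables and not in the GDC-0449 table, and Cdkn1c was in none of them and is not analysed here. The fourth INK4 gene, Cdkn2b, was held by the SMB56-shSufu and GDC-0449 tables and is given beside the others.

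CDK inhibitors are small proteins that stop or slow the cyclin-dependent kinases that drive the cell cycle. CIP/KIP proteins bind cyclin and kinase together and restrain CDK2 complexes, while they can also help cyclin D to assemble with CDK4 and CDK6. INK4 proteins bind CDK4 and CDK6 alone and keep cyclin D off, so that the retinoblastoma family of pocket proteins stays active. In cerebellar granule neuron progenitors, from which hedgehog-driven medulloblastoma arises, hedgehog signalling keeps cells cycling and p27Kip1, the product of Cdkn1b, accumulates as they leave the cycle.

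All cells came from SMB56, a spontaneous medulloblastoma line of Ptch+/- genotype kept at passages 10-15 and grown as neurospheres. The SMB56-shSufu cells had received 0.1 µM THZ1 or DMSO. The SMB56 cells, for which the labels name no hairpin, had received 0.1 µM THZ1, 1 µM GDC-0449 or DMSO. Each exposure lasted 8 hours. SMB56-shSufu is the same line with a stably expressed short hairpin RNA against Sufu, an inhibitor of GLI transcription factors that acts downstream of SMO, and the labels describe 1 such line. THZ1 is a covalent inhibitor of CDK7, a kinase of the transcription machinery that also activates cell-cycle CDKs, and GDC-0449 (vismodegib) inhibits SMO. Every group had 2 libraries, 10 in all, and no label states whether replicates were grown separately, so the p-values reflect only library-to-library spread, which may be technical.

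Levels are CPM, reads scaled to a fixed library total, after TMM scaling, and they were fitted table by table. TMM is an edgeR method that assumes that most genes do not change between libraries. The SMB56 THZ1 table kept almost only genes that the authors called changed, 9999 of 10007. The assumption, and with it the place of 0, is therefore uncertain there. The GDC-0449 table held 1 gene with the authors' p above 0.9, against 342 in the SMB56-shSufu table, and none with a mean count under 79.5. Shares of genes called in fits that use the GDC-0449 table are therefore over a trimmed set. A gene was called where edgeR's quasi-likelihood test gave an adjusted p under 0.05, with Benjamini-Hochberg adjustment across every gene in the fit. Summed over the genes each table holds, libraries had 10614268 to 14986389 counts in the SMB56 tables and 30100041 to 33254885 in the SMB56-shSufu table. These sums are not full library sizes. SMB56 DMSO replicate 1 had 12738482 counts in the SMB56 THZ1 table and 14486776 in the GDC-0449 table. Libraries of a group also varied more in SMB56-shSufu, where edgeR's biological coefficient of variation came to 13.3% for THZ1, against 3.02% for the SMB56 THZ1 libraries and 2.27% for the GDC-0449 libraries. The mitochondrial share of the counts held was 7.55% and 6.55% in SMB56 THZ1 libraries and 3.75% and 3.74% in DMSO libraries. It was 3.29% in both of those DMSO libraries in the GDC-0449 table. It was 13.1% and 13% in SMB56-shSufu THZ1 libraries and 5.92% and 8.29% in DMSO libraries. Sufu itself had 23.2 and 24.1 CPM in SMB56-shSufu DMSO libraries, against 70.2 and 65.7 CPM in SMB56 DMSO libraries (log2 fold change -1.52 ± 0.10, SE, edgeR adjusted p = 0.0012). THZ1 raised Sufu in both lines under TMM scaling. Scaling libraries to mitochondrial counts moved the median gene in SMB56 from -0.312 to -1.584 on the log2 scale, more than the 0.897 that Sufu rose there. In SMB56-shSufu it moved the median from -0.043 to -1.367, less than the 2.102 that Sufu rose. The direction for Sufu in SMB56 thus depends on the scaling. In the hairpin line Sufu had 83.4 and 77.9 CPM with THZ1 against 18.5 and 19 CPM with DMSO. In SMB56 it had 127 and 134 CPM with THZ1, against 72.4 and 68 CPM with DMSO. The rise was larger in the hairpin line, by 1.075 ± 0.128 on the log2 scale (SE, edgeR adjusted p = 0.0019). Of 7 granule neuron progenitor markers, 5 were held in each SMB56 table and 6 in the SMB56-shSufu table. None of the 5 microglia markers, nor of the 5 endothelium and fibroblast markers, was held in any table.

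The stretches just upstream of the start sites are shown for the genes whose values the results turn on, from RefSeq on GRCm38.p6, 5′ to 3′ on the gene's strand and cut before any annotated exon. They were searched on both strands for 6 motifs. The TATA box was searched as TATAA and the CCAAT box by its own letters. The GC box was searched as GGGCGG, the E-box as CACGTG and the GLI motif as GACCACCCA, while the last was the p53 consensus decamer. Capitals mark TATA, CCAAT and GC boxes and p53 decamers on either strand, and no marked motifs overlap. Over 32851 windows of 250 bases, 22.8% held a TATA box, 33.8% a CCAAT box, 32.7% a GC box, 6.02% an E-box, 0.225% a GLI motif and 7.13% a p53 decamer. Cdkn1a lies at chr17:29090976-29100727 on the plus strand and has a distal and a proximal start in RefSeq. The distal start is preceded by chr17:29090729-29090975 and the proximal start by chr17:29093519-29093768.
Cdkn1a, distal start: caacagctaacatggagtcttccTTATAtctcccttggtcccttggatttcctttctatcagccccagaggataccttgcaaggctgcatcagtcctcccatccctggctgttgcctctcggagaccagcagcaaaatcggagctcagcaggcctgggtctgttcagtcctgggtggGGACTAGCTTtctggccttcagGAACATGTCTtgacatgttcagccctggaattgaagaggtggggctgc
Cdkn1a, proximal start: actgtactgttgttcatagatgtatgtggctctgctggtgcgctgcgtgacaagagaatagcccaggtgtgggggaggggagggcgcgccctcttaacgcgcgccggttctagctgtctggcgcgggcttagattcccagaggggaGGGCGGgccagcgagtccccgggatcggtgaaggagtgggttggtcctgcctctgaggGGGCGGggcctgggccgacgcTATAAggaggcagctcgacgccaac
The distal window held 2 p53 decamers and 1 TATA box on the opposite strand, and the proximal window held a TATA box at 25 to 21 bases before the start and 2 GC boxes. Cdkn1b lies at chr6:134920401-134925513 on the plus strand, and chr6:134920151-134920400 precedes it.
Cdkn1b: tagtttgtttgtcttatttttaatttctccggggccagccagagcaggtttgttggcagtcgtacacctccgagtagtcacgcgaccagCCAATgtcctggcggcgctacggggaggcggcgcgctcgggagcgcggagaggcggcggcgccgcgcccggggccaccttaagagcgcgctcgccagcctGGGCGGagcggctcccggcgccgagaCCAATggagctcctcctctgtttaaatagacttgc
It held 2 CCAAT boxes and 1 GC box. Cdkn2a lies at chr4:89274471-89294653 on the minus strand, with a start for the p19Arf transcript preceded by chr4:89294654-89294869 and a start for the p16Ink4a transcript preceded by chr4:89282193-89282442.
Cdkn2a, p19Arf start: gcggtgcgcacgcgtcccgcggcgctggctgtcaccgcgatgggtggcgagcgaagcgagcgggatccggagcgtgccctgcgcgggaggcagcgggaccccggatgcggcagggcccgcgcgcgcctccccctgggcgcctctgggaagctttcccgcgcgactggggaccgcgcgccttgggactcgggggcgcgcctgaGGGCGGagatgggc
Cdkn2a, p16Ink4a start: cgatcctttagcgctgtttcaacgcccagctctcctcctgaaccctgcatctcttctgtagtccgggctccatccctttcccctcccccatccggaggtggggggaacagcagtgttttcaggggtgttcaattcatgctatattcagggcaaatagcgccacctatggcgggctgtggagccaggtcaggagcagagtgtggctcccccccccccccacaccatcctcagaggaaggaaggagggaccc
The p16Ink4a window held none of the motifs, and the 2 GC boxes before the p19Arf start include 1 inside the exon part that is left out. Cdkn2c lies at chr4:109660876-109667189 on the minus strand, and chr4:109665373-109665609 precedes its inner start. The window before its outer start lies within annotated exons, held 3 GC boxes and is not printed.
Cdkn2c, inner start: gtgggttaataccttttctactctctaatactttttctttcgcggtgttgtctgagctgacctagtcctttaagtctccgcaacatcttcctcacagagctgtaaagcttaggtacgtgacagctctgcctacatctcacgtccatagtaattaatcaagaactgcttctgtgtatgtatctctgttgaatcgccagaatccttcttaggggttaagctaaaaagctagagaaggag
None of the motifs was in that inner window. Cdkn2d lies at chr9:21288410-21291407 on the minus strand, and its window overlaps annotated exons over 198 of 250 bases, so it is not printed. That window held 3 GC boxes, 1 CCAAT box and 1 p53 decamer. A GLI motif was in none of these windows, which says only that those letters are absent there.

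Per length, the 5 held genes spanned an order of magnitude in SMB56 under DMSO, with Cdkn1b highest and Cdkn1a lowest. In the authors' FPKM, Cdkn1b averaged 83.7 ± 2.26 (SD, n = 2, as for the values that follow). Cdkn2a averaged 67.4 ± 4.45 and Cdkn2c 36.8 ± 1.91 FPKM. Cdkn2d averaged 17.5 ± 0.283 and Cdkn1a 5.98 ± 0.53 FPKM. No neighbours in that order overlapped between libraries. Cdkn2b stood at 1.4 ± 0.212 FPKM, below all of them. In SMB56-shSufu under DMSO the order was less clear and Cdkn1a stood among the upper genes. Cdkn2a averaged 52.4 ± 17.7, Cdkn1b 51 ± 5.3, Cdkn1a 42 ± 14.4 and Cdkn2c 33.7 ± 7.21 FPKM. Those neighbours overlapped, and only Cdkn2d, at 14.8 ± 3.61 FPKM, stood below them in both libraries.

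**Figure D1:**
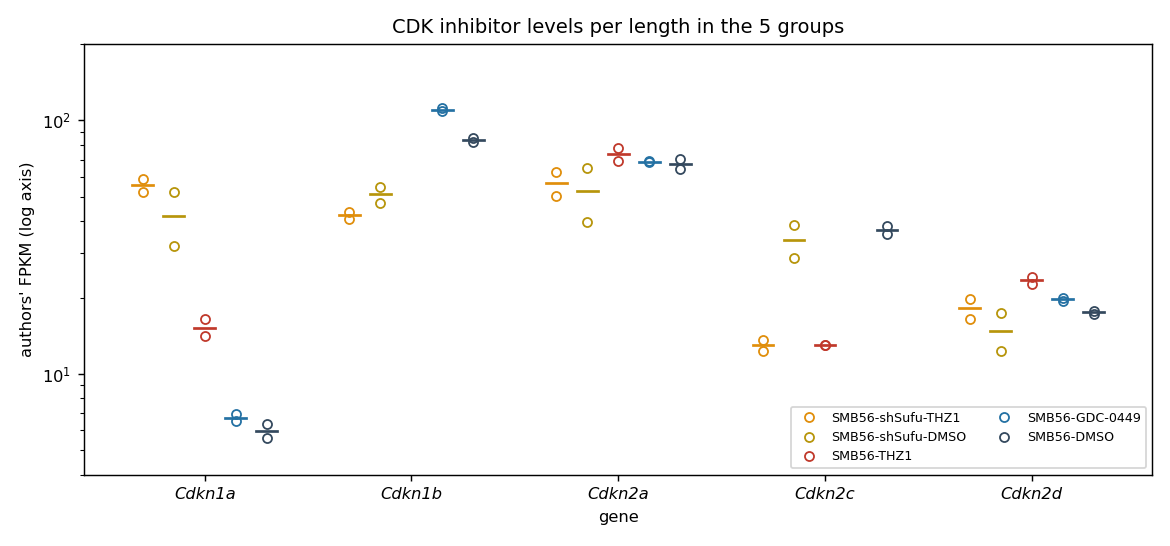
Authors' FPKM (log axis) of each gene in the 5 groups, with points for libraries and a line for the mean of 2. Cdkn1a spans from 5.6 FPKM in an SMB56 DMSO library to 58.9 FPKM in an SMB56-shSufu THZ1 library, and Cdkn2c is at about the same 13 FPKM with THZ1 in both lines.

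Across the 5 groups Cdkn1a had the widest range as a fold, while Cdkn1b spanned more FPKM, 40.8 to 112 over the 4 groups that have it. It stood at 58.9 and 52.2 FPKM in SMB56-shSufu THZ1, 52.2 and 31.8 in SMB56-shSufu DMSO, 14.1 and 16.4 in SMB56 THZ1, 6.92 and 6.51 in GDC-0449 and 6.35 and 5.6 FPKM in SMB56 DMSO. The 2 SMB56-shSufu groups met at 52.2 FPKM, while every SMB56-shSufu library lay above every SMB56 library. Cdkn2c was at 13.6 and 12.3 FPKM in SMB56-shSufu THZ1 and at 13 in both SMB56 THZ1 libraries, below 38.8 and 28.6 FPKM in SMB56-shSufu DMSO and 35.5 and 38.2 FPKM in SMB56 DMSO. Cdkn2a lay between 39.8 FPKM in an SMB56-shSufu DMSO library and 78 FPKM in an SMB56 THZ1 library. Its counts cannot separate p16Ink4a from p19Arf, since the transcripts share 575 exon bases, 67.5% of Cdkn2a-201 (p16Ink4a) and 64.2% of Cdkn2a-202 (p19Arf). Cdkn1a overlaps an unclassified gene model, AC167363.2, on the opposite strand, and no source used here says whether the counts respect strand, so reads of the 2 models cannot be told apart.

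The first question was what THZ1 does to these genes in SMB56. Under TMM scaling Cdkn1a, Cdkn2a and Cdkn2d rose and Cdkn2c fell, and mitochondrial scaling turned Cdkn2a and Cdkn2d below 0, as ribosomal protein scaling did Cdkn2a. In such bulk samples, less RNA per cell and fewer cells of a type cannot be told apart. Cdkn1a encodes p21Cip1, a p53 target that inhibits CDK2. It had 53.9 and 58.8 CPM with THZ1, against 16.8 and 14.1 CPM with DMSO. Both THZ1 libraries lay above both DMSO libraries, by 3.65-fold (log2 fold change 1.87 ± 0.09, SE, edgeR adjusted p = 5.1e-14). Cdkn2a encodes p16Ink4a, a CDK4 and CDK6 inhibitor, and p19Arf, which stabilises p53. It had 124 and 115 CPM with THZ1, against 84.3 and 73.7 CPM with DMSO, so that the groups did not overlap (log2 fold change 0.60 ± 0.06, edgeR adjusted p = 1.4e-08). In FPKM its libraries did overlap, at 78 and 69.2 with THZ1 and 70.5 and 64.2 with DMSO, and limma on log2(FPKM + 1) did not call it (0.13, adjusted p = 0.19).

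Cdkn2d, which encodes p19Ink4d, had 64.6 and 59.8 CPM with THZ1, against 30.7 and 30.8 CPM with DMSO (log2 fold change 1.02 ± 0.07, edgeR adjusted p = 2.6e-11). Cdkn2c encodes p18Ink4c, an INK4 protein whose loss promotes medulloblastoma in Ptch heterozygous mice. It had 59.2 and 56.9 CPM with THZ1, against 115 and 121 CPM with DMSO, about 2.04-fold lower (log2 fold change -1.03 ± 0.06, edgeR adjusted p = 8.4e-13). Cdkn2c and Cdkn2d, which encode related INK4 proteins, thus moved in opposite directions in the same 4 libraries under TMM scaling. The fits called 4 of the 4 members tested here, but 99.5% of 9863 genes tested were called, 44.3% higher and 55.2% lower, since 9999 of the 10007 genes kept here have the authors' adjusted p under 0.05 in the authors' deposited table. The count therefore says nothing about the members. By size, Cdkn1a had a larger log2 fold change than all but 12.9% of the genes, and Cdkn2c a lower one than 75.8% of them.

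**Figure D2:**
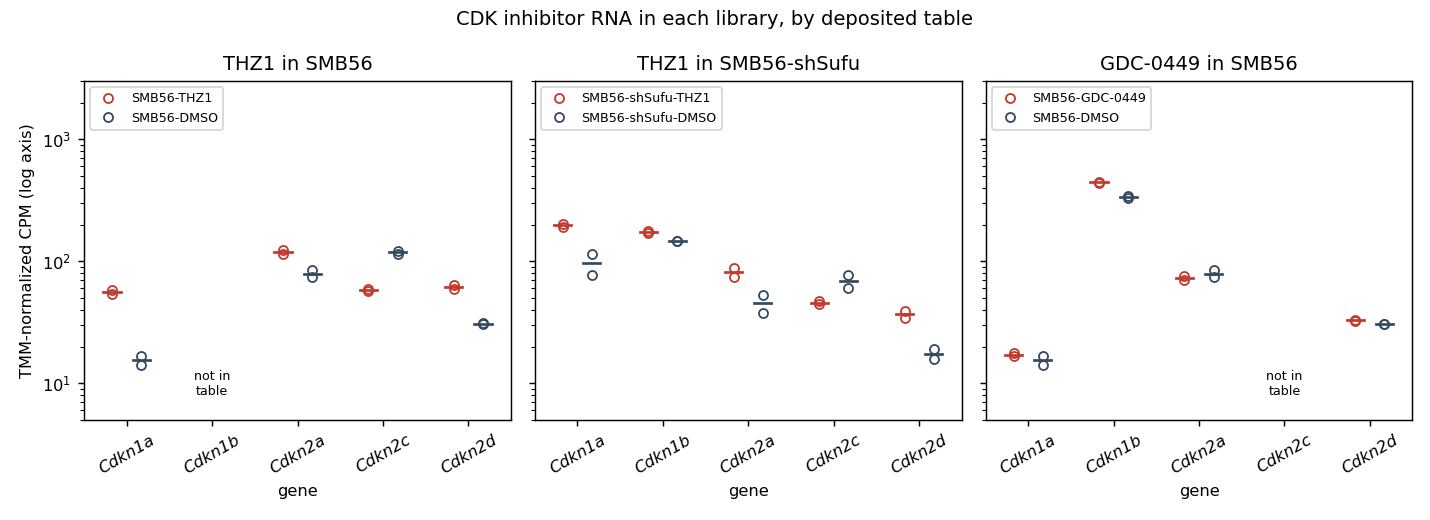
TMM-normalized CPM (log axis) of each gene in each library of the 3 tables, with circles for libraries and a line for the mean of 2; the treated group is left of DMSO. THZ1 libraries lie above DMSO libraries for Cdkn1a, Cdkn2a and Cdkn2d and below for Cdkn2c in both lines. With THZ1, mitochondrial scaling turns Cdkn2a and Cdkn2d in both lines, and Cdkn1a and Cdkn1b in SMB56-shSufu.

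The same compound in SMB56-shSufu gave the same direction under TMM scaling for the 4 genes that both THZ1 tables hold, and mitochondrial scaling turned the 3 that rose below 0. Cdkn1a had 204 and 190 CPM with THZ1, against 116 and 77 CPM with DMSO (log2 fold change 1.03 ± 0.18, edgeR adjusted p = 3e-04). Both THZ1 libraries lay above both DMSO libraries, and the DMSO libraries stood further apart than the THZ1 libraries. Cdkn2a had 87.7 and 74.2 CPM with THZ1, against 53.6 and 37.7 CPM with DMSO (log2 fold change 0.83 ± 0.18, edgeR adjusted p = 0.0013). Cdkn2d had 39 and 34.4 CPM with THZ1, against 19.4 and 15.8 CPM with DMSO (log2 fold change 1.06 ± 0.17, edgeR adjusted p = 0.00014).

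Cdkn2c fell to 46.9 and 44.2 CPM with THZ1, against 77.4 and 59.9 CPM with DMSO (log2 fold change -0.59 ± 0.16, edgeR adjusted p = 0.0057). That call was lost without SMB56-shSufu THZ1 replicate 2 (log2 fold change -0.55, edgeR adjusted p = 0.058). Cdkn1b encodes p27Kip1, the CDK2 inhibitor of quiescent cells. It had 177 and 171 CPM with THZ1, against 146 and 146 CPM with DMSO, groups that did not overlap but did not pass the test (log2 fold change 0.25 ± 0.14, 95% interval -0.05 to 0.55, edgeR adjusted p = 0.14). In FPKM the groups stood the other way, at 43.6 and 40.8 with THZ1 against 54.7 and 47.2 with DMSO. Mitochondrial scaling also turned Cdkn1b below 0, to a log2 fold change of -1.08. Cdkn2b, which encodes p15Ink4b, had 3.93 and 3.18 CPM with THZ1, against 2.56 and 3.78 CPM with DMSO, and the groups overlapped (log2 fold change 0.17 ± 0.31, adjusted p = 0.66 in edgeR). The test called 4 of the 5 members held here, where 61.9% of 11886 genes were called, 29.5% higher and 32.3% lower. In limma on log2(FPKM + 1), where no TMM scaling is applied, none of the 3 risers was called, with adjusted p between 0.14 and 0.64.

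**Figure D3:**
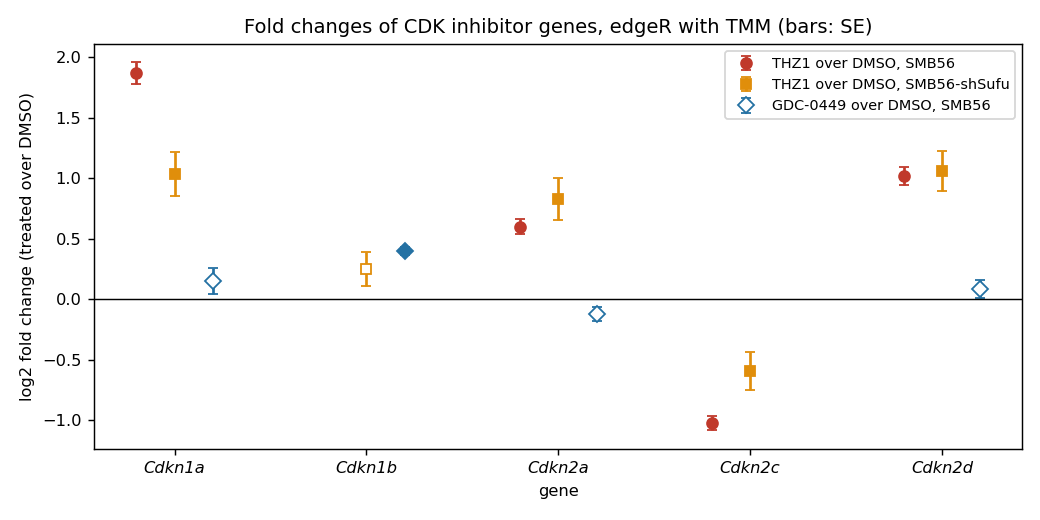
Log2 fold changes over DMSO from edgeR with TMM scaling, with bars for the standard error and open symbols for genes not called. THZ1 values are above 0 for Cdkn1a, Cdkn2a and Cdkn2d and below 0 for Cdkn2c in both lines, and GDC-0449 is called for Cdkn1b only. With THZ1, mitochondrial scaling turns Cdkn2a and Cdkn2d below 0 in both lines, and Cdkn1a and Cdkn1b in SMB56-shSufu.

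Whether the lines responded differently to THZ1 was tested as a difference of the effects over the 8204 genes in both THZ1 tables. Cdkn1a rose by less in SMB56-shSufu than in SMB56, with a difference of -0.96 ± 0.24 on the log2 scale (95% interval -1.502 to -0.424, edgeR adjusted p = 0.023). It was the only member of 4 called, where 18.3% of genes were called, 10.4% as higher and 7.89% as lower in SMB56-shSufu. The call was kept without either SMB56-shSufu DMSO library and was lost without any 1 of the 4 SMB56 libraries or either SMB56-shSufu THZ1 library, with edgeR adjusted p of 0.055 to 0.096. It was also not called under mitochondrial scaling (-0.94, edgeR adjusted p = 0.18) or ribosomal protein scaling (-0.33, edgeR adjusted p = 0.3), or with limma on log2(FPKM + 1) (-0.78, adjusted p = 0.12). Cdkn2c differed by 0.31 ± 0.17 (95% interval -0.07 to 0.68, edgeR adjusted p = 0.22), and passed once SMB56-shSufu DMSO replicate 1 was left out (0.49, edgeR adjusted p = 0.0081). Cdkn2a differed by 0.10 ± 0.22 (95% interval -0.38 to 0.58) and Cdkn2d by -0.09 ± 0.17 (95% interval -0.47 to 0.30), neither of them called. Cell line cannot be told apart here from table, depth and sequencing.

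The 2 lines were then set side by side under DMSO, with SMB56 taken from the GDC-0449 table, which is not selected on the THZ1 outcome. Line cannot be told apart here from table, depth and sequencing. A single hairpin line is set against cells for which the labels name no hairpin, so an effect of Sufu knockdown was not tested. Cdkn1a was higher in the hairpin line, at 145 and 97.4 CPM in SMB56-shSufu, against 16.3 and 13.6 CPM in SMB56. This is 8.09-fold and stayed at 1.82 or more on the log2 scale under every alternative (log2 fold change 3.02 ± 0.23, 95% interval 2.45 to 3.58, edgeR adjusted p = 0.0016). Of 9719 genes it ranked 3 by log2 fold change, behind Dcpp2 and Lsp1, which are named for their rank only. Cdkn1b, by contrast, was lower, at 183 and 185 CPM in SMB56-shSufu, against 333 and 319 CPM in SMB56 (-0.83 ± 0.08 on the log2 scale, edgeR adjusted p = 0.0025). The 2 CIP/KIP genes held thus stood in opposite directions between the lines. The ratio of Cdkn1a to Cdkn1b in FPKM, which no library scaling can move, was 0.954 and 0.674 in SMB56-shSufu, against 0.0744 and 0.0682 in SMB56. That ratio restates the opposite directions of these genes.

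The INK4 genes differed less. Cdkn2a had 66.9 and 47.8 CPM in SMB56-shSufu, against 81.7 and 71.2 CPM in SMB56 (-0.42 ± 0.18 on the log2 scale, edgeR adjusted p = 0.12). Cdkn2d had 24.3 and 20 CPM in SMB56-shSufu, against 29.8 in both SMB56 libraries (log2 fold change -0.43 ± 0.14, edgeR adjusted p = 0.054). Both genes were called without either SMB56-shSufu DMSO library, at -0.69 and -0.19 for Cdkn2a and at -0.58 and -0.29 for Cdkn2d. Cdkn2b had 3.2 and 4.79 CPM in SMB56-shSufu, against 6.45 and 6.14 CPM in SMB56 (-0.65 ± 0.27 on the log2 scale, edgeR adjusted p = 0.1). Without SMB56-shSufu DMSO replicate 2 Cdkn2b was called (-0.97, edgeR adjusted p = 0.00021), and without replicate 1 it was not (-0.40, edgeR adjusted p = 0.096). The call set was 2 of 4 members, 1 higher and 1 lower, where 40.6% of 9719 genes were called, 20.8% higher and 19.8% lower. Cdkn2c is not in the GDC-0449 table, though the same DMSO libraries had 1659 and 1817 counts of it in the SMB56 THZ1 table. With SMB56 DMSO counts from the THZ1 table, a fit chosen after the tables had been seen, Cdkn2c had 110 and 86 CPM in SMB56-shSufu, against 127 and 134 CPM in SMB56 (-0.41 ± 0.13 on the log2 scale, edgeR adjusted p = 0.057), where 41.7% of 8200 genes were called.

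GDC-0449 moved 1 of the 4 members tested against DMSO in SMB56, Cdkn1b. Over the trimmed set of that table, 36.3% of 10008 genes were called, 17.5% higher and 18.8% lower. Cdkn1b rose to 439 and 449 CPM with GDC-0449, against 344 and 331 CPM with DMSO, or 1.32-fold (log2 fold change 0.40 ± 0.03, 95% interval 0.33 to 0.46, edgeR adjusted p = 4.9e-11). In the fit of 8 libraries of both lines, which shares the larger spread of SMB56-shSufu, it was still called (log2 fold change 0.40, edgeR adjusted p = 0.04), while only 140 genes were called in all. Cdkn1a had 17.7 and 16.6 CPM with GDC-0449, against 16.8 and 14.1 CPM with DMSO, and the libraries overlapped (log2 fold change 0.15 ± 0.11, 95% interval -0.07 to 0.37, edgeR adjusted p = 0.27). Cdkn2d had 32.6 and 32.9 CPM with GDC-0449, against 30.8 and 30.9 CPM with DMSO (95% interval -0.07 to 0.24 on the log2 scale, edgeR adjusted p = 0.37). Cdkn2a had 70 and 75.5 CPM with GDC-0449, against 84.5 and 73.9 CPM with DMSO, and these overlapped (log2 fold change -0.12 ± 0.06, edgeR adjusted p = 0.097). Cdkn2a was called without SMB56 DMSO replicate 2 (-0.22, edgeR adjusted p = 0.0035) or without GDC-0449 replicate 2 (-0.18, edgeR adjusted p = 0.027). Cdkn2b had 6.1 and 5.67 CPM with GDC-0449, against 6.68 and 6.36 CPM with DMSO (edgeR adjusted p = 0.52).

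Set against GDC-0449 within SMB56, over the 7417 genes that both tables hold, THZ1 gave higher levels of the 3 members tested under TMM scaling, and mitochondrial scaling turned Cdkn2a and Cdkn2d below 0. Cdkn1a had 67.3 and 73.4 CPM with THZ1, against 18.4 and 17.3 CPM with GDC-0449 (1.97 ± 0.09 on the log2 scale, edgeR adjusted p = 1.8e-16). For Cdkn2a the levels were 154 and 144 CPM with THZ1, against 72.9 and 78.5 CPM with GDC-0449 (0.98 ± 0.06 on the log2 scale, edgeR adjusted p = 1.9e-13). Cdkn2d had 80.6 and 74.6 CPM with THZ1, against 33.9 and 34.2 CPM with GDC-0449 (1.19 ± 0.07 on the log2 scale, edgeR adjusted p = 3.1e-14). In this fit 90.3% of genes were called, 39.5% higher and 50.8% lower. The agents were given at unequal doses, 0.1 µM THZ1 and 1 µM GDC-0449, and the SMB56 comparisons with DMSO share the same DMSO libraries.

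THZ1 changed the balance of these genes within each library, which does not depend on the scaling. The ratio of Cdkn2d to Cdkn2c in FPKM was 1.86 and 1.75 with THZ1 in SMB56, against 0.487 and 0.463 with DMSO. The SMB56-shSufu ratios were 1.46 and 1.34 with THZ1, against 0.448 and 0.43 with DMSO. Cdkn1a over Cdkn2c moved likewise, to 1.08 and 1.26 with THZ1 against 0.179 and 0.147 with DMSO in SMB56. In SMB56-shSufu Cdkn1a over Cdkn2c was 4.33 and 4.24 with THZ1, against 1.35 and 1.11 with DMSO. Both pairs of ratios were separated in each line with no overlap. Each sets a gene that rose under TMM over the gene that fell, so the separation restates those changes and is no further evidence. The ratio of Cdkn1a to Cdkn2a was 0.181 and 0.237 with THZ1, against 0.0901 and 0.0872 with DMSO in SMB56. In SMB56-shSufu it was closer, at 0.944 and 1.03 with THZ1, against 0.804 and 0.799 with DMSO.

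The sign of a fold change did depend on how libraries were scaled. Under TMM the median gene fell by 0.312 on the log2 scale with THZ1 in SMB56, and it fell by 1.584 when libraries were scaled to mitochondrial counts. In SMB56-shSufu the median was -0.043 with TMM and -1.367 with mitochondrial scaling. Measured from that median, Cdkn1a was 1.87 to 2.35 higher in SMB56 over all alternatives, Cdkn2d 1.063 to 1.496, Cdkn2a 0.78 to 1.08 and Cdkn2c -0.77 to -0.56. In SMB56-shSufu the same measure was 0.80 to 1.39 for Cdkn1a, 0.87 to 1.26 for Cdkn2d, 0.63 to 1.13 for Cdkn2a and -0.74 to -0.36 for Cdkn2c. A library scaling moves all genes alike and barely enters these ranges, whose ends come from FPKM, fits of more libraries and libraries left out. Mitochondrial scaling gave log2 fold changes of -0.68 for Cdkn2a, which was called lower, and -0.26 for Cdkn2d in SMB56, while Cdkn1a stayed above 0 at 0.60. In SMB56-shSufu it gave -0.34 for Cdkn1a, -0.54 for Cdkn2a and -0.29 for Cdkn2d, none of them called. For Cdkn1b it gave -1.08 there, which was called lower.

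**Figure D4:**
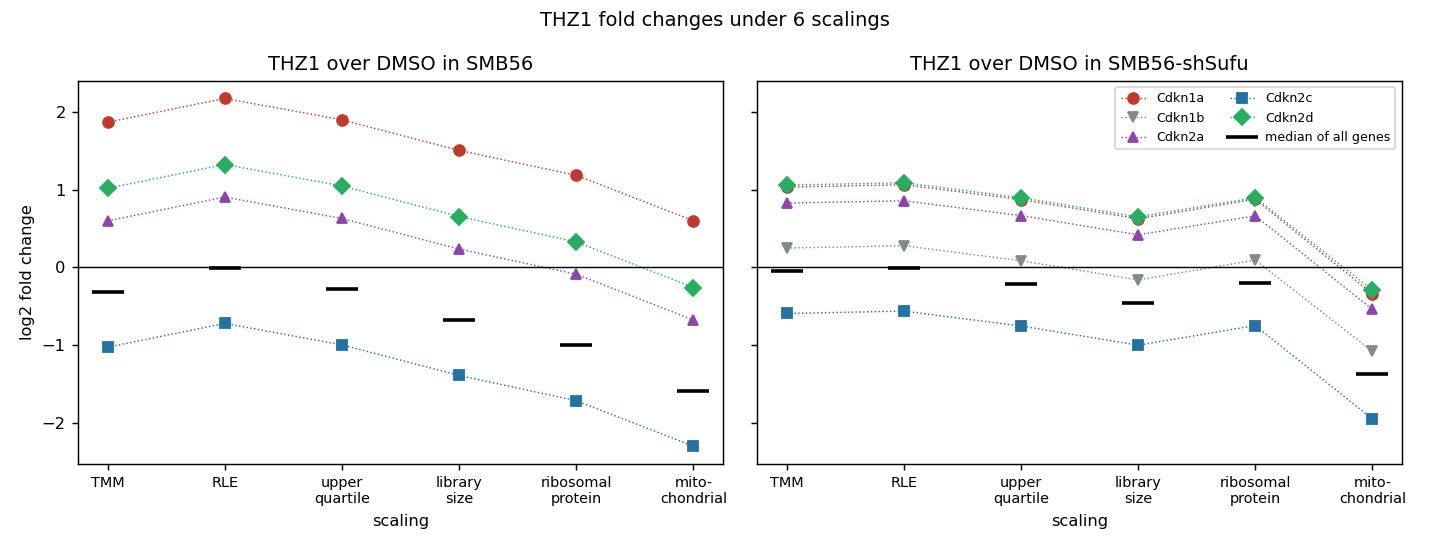
Log2 fold change of THZ1 over DMSO under 6 scalings for each member, with a black bar for the median of all genes tested. A scaling moves all genes of a library alike, so a member's distance from the median is nearly the same at each by construction. What differs is the position of 0. Mitochondrial scaling puts Cdkn2a and Cdkn2d below 0 in both lines, and Cdkn1a and Cdkn1b in SMB56-shSufu.

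The kinases and cyclins that these proteins restrain moved with THZ1 as well. In SMB56 8 of 8 tested cyclins and CDKs fell and none rose (median log2 fold change -0.915, against -0.312 for all genes), in a table where 99.5% of genes were called and 55.2% fell. That table does not hold Ccnb2, Ccnd1, Ccnd3 or Cdk6, though the same DMSO libraries had 3379 and 3610 counts of Ccnd1. Ccne2, cyclin E2, fell most, to 25.2 and 25.7 CPM with THZ1 against 69.2 and 72.2 CPM with DMSO (log2 fold change -1.47, edgeR adjusted p = 9e-14). Cdk4 had a log2 fold change of -0.96 and Cdk2 of -0.59, both called. In SMB56-shSufu 9 of 12 fell and 3 rose under TMM scaling (median -0.615, against -0.043 for all genes), where 32.3% of all genes fell and 29.5% rose. The 8 genes tested in both lines fell in both, and the 3 that rose, Ccnd1, Cdk6 and Ccnb2, are among those the SMB56 THZ1 table lacks. Ccne2 fell there by 2.03 on the log2 scale, to 21.3 and 22.1 CPM with THZ1 against 80.2 and 96.2 CPM with DMSO (edgeR adjusted p = 6.9e-07). Ccnd1, cyclin D1, rose there under TMM, to 487 and 492 CPM with THZ1 against 222 and 159 CPM with DMSO (log2 fold change 1.36), and Cdk6 by 0.75, both turned below 0 by mitochondrial scaling. GDC-0449 lowered 6 of 12 and raised 1, with a median of -0.141 against -0.009 for all genes, of which 18.8% fell and 17.5% rose. Ccnd1 fell to 81.5 and 77.8 CPM with GDC-0449 against 235 and 242 CPM with DMSO (log2 fold change -1.58), and Cdk6 by 1.41, while Ccnb1, cyclin B1, rose by 0.13.

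**Figure D5:**
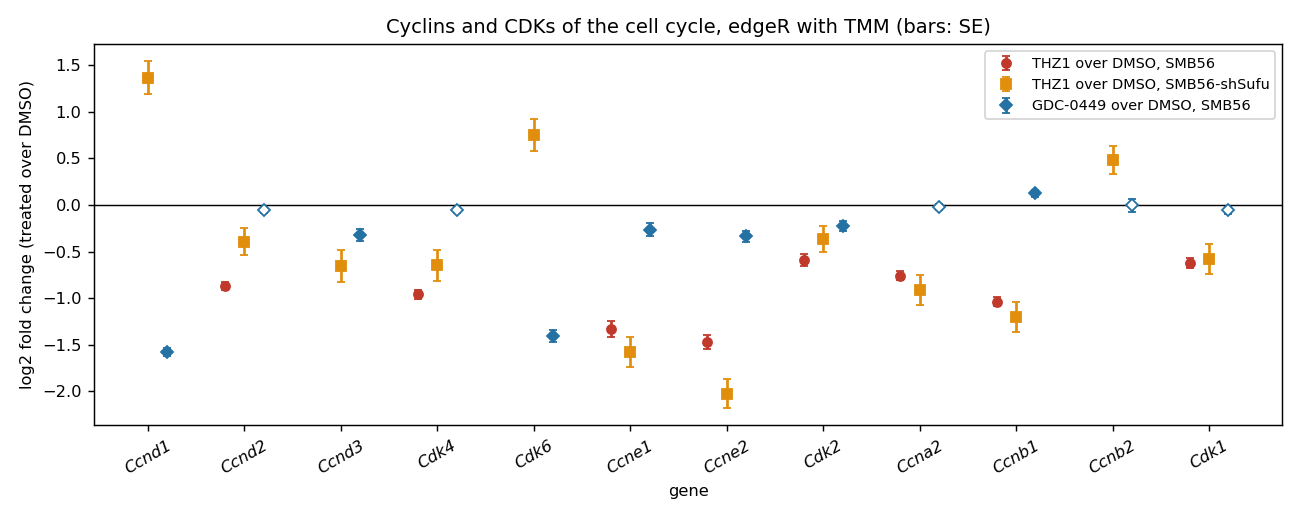
Log2 fold changes over DMSO of 12 cyclins and CDKs from edgeR with TMM scaling, with bars for the standard error and open symbols for genes not called. With THZ1 all 8 genes tested in SMB56 lie below 0, in SMB56-shSufu Ccnd1, Cdk6 and Ccnb2 lie above 0 (below 0 under mitochondrial scaling), and with GDC-0449 Ccnd1 and Cdk6 lie lowest.

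In SMB56-shSufu against SMB56 under DMSO, 9 of 12 cyclins and CDKs were higher under TMM scaling and 1 was lower, Ccnd2, where 20.8% of all genes were called higher and 19.8% lower. Mitochondrial scaling turned these higher values below 0 except those of Ccnd3 and Cdk6. Ccnd3, cyclin D3, stood at 372 and 270 CPM in SMB56-shSufu, against 48.6 and 47.8 CPM in SMB56 (2.73 on the log2 scale under TMM, edgeR adjusted p = 0.0012). Cdk6 was 1.65 higher under TMM. Mitochondrial scaling gave 1.53 for Ccnd3, still called, and 0.39 for Cdk6, not called (edgeR adjusted p = 0.18). Ccnd2 had 362 and 401 CPM in SMB56-shSufu, against 1070 CPM in both SMB56 libraries (log2 fold change -1.48). Cdkn1a and Ccnd3 thus ranked 3 and 5 by log2 fold change among 9719 genes, where line cannot be told apart from table.

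No gene of the pocket proteins, the targets that CDK4 and CDK6 phosphorylate, was called higher in a treatment comparison under TMM scaling. With THZ1 2 of 2 tested fell in SMB56, where 55.2% of all genes fell. In SMB56-shSufu 1 of 3 fell, where 32.3% of all genes fell, and with GDC-0449 1 of 3, where 18.8% fell. Rbl1, which encodes p107, fell in all 3 treatment comparisons. It had 156 and 150 CPM with THZ1, against 475 and 491 CPM with DMSO in SMB56 (log2 fold change -1.66). The log2 fold change of Rbl1 was -1.05 with THZ1 in SMB56-shSufu and -0.10 with GDC-0449 in SMB56. Rb1 was not called in either table that holds it. The next list holds genes of the SCF-SKP2 and CUL4 ligases, which mark p27Kip1 and p21Cip1 for degradation, and Cdc20, which belongs to neither ligase. Of these, 2 of 7 rose and 5 fell with THZ1 in SMB56, where 44.3% of all genes rose and 55.2% fell. Size factors of the RLE method turned the fall of Cdc20 (-0.23 under TMM) above 0. In SMB56-shSufu 2 of 10 rose and 2 fell, where 29.5% of all genes rose and 32.3% fell. With GDC-0449 0 of 10 rose and 3 fell, where 17.5% of all genes rose and 18.8% fell. Ddb1 and Skp1a were the 2 that rose with THZ1 in each line, both turned below 0 by mitochondrial scaling. Skp2, the p27Kip1-binding subunit, fell by 0.99 with THZ1 in SMB56, by 1.03 in SMB56-shSufu and by 0.21 with GDC-0449 on the log2 scale. Cul4a fell most in SMB56 with THZ1 (-1.11) and Skp1a rose most (1.10 under TMM). In SMB56-shSufu Ddb1 rose most (1.16 under TMM), and Dtl fell most with GDC-0449 (-0.37).

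Of transcriptional regulators of these genes, 7 of 16 rose and 9 fell with THZ1 in SMB56, shares close to the 44.3% and 55.2% of all genes. Mitochondrial scaling turned Atoh1, Myc, Mycn and Zbtb17 of those 7 below 0, and size factors of the RLE method turned Bmi1 and Foxo3 of the 9 above 0. With THZ1 in SMB56-shSufu 7 of 18 rose and 4 fell, where 29.5% of all genes rose and 32.3% fell, and mitochondrial scaling turned Foxo1, Foxo3 and Mycn below 0. With GDC-0449 3 of 17 rose and 6 fell, where 17.5% of all genes rose and 18.8% fell. Smad3, a TGF-beta effector that can induce Cdkn1a and Cdkn2b, fell most in each, by 2.00 on the log2 scale with THZ1 in SMB56, by 1.35 in SMB56-shSufu and by 1.41 with GDC-0449. Cbx8, a Polycomb protein that represses Cdkn2a, rose by 2.16 with THZ1 in SMB56 and Klf6, an inducer of Cdkn1a, by 2.34 in SMB56-shSufu. Atoh1, the granule progenitor factor, rose most with GDC-0449 (0.32). Trp53 RNA, which encodes p53, had a log2 fold change of -0.53 with THZ1 in SMB56 and -0.24 with GDC-0449, both called, and of -0.17 with THZ1 in SMB56-shSufu, not called.

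Other p53 targets did not move as one. With THZ1 4 of 8 rose and 4 fell in SMB56, where 44.3% of all genes rose and 55.2% fell. In SMB56-shSufu 5 of 13 rose and 3 fell, where 29.5% of all genes rose and 32.3% fell. Mitochondrial scaling turned Bax and Gadd45a below 0 in both lines, and Pmaip1 and Zmat3 in SMB56-shSufu, so that Bbc3 alone of the 5 stayed above 0 there, while RLE size factors turned Trp53inp1, 1 of the 4 that fell in SMB56, above 0. Bbc3, which encodes the apoptosis inducer PUMA, rose most, to 46 and 52.1 CPM with THZ1 against 8.6 and 9.69 CPM with DMSO in SMB56 (2.42 on the log2 scale, edgeR adjusted p = 6.6e-15). In SMB56-shSufu Bbc3 had 9.61 and 10 CPM with THZ1, against 3.92 and 2.88 CPM with DMSO (log2 fold change 1.53). Btg2 fell most in SMB56 (-1.29) and Rrm2b in SMB56-shSufu (-1.43). With GDC-0449 6 of 13 rose and 3 fell, where 17.5% of all genes rose and 18.8% fell, led by Trp53inp1 (0.73) and Aen (-0.41). Between the lines under DMSO, where Cdkn1a was 8.09-fold higher in SMB56-shSufu, 2 of 13 were higher (Aen and Sesn2, both turned by mitochondrial scaling) and 4 lower, where 20.8% of all genes were higher and 19.8% lower. Bbc3 stood at 4.9 and 3.64 CPM in SMB56-shSufu, against 8.34 and 9.37 CPM in SMB56, and Trp53inp1 at 34.6 and 43.6 CPM in SMB56-shSufu, against 112 CPM in both SMB56 libraries.

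Granule progenitor markers summed to 3650 to 3710 CPM with THZ1, against 2220 CPM with DMSO in SMB56. With GDC-0449 they summed to 2810 to 2820 CPM, against 2210 to 2220 CPM with DMSO. In SMB56-shSufu the sum was 3220 to 3230 CPM with THZ1, against 1200 to 1230 CPM with DMSO. Oligodendrocyte-lineage sums differed in direction between the tables. The 4 of 5 held in SMB56-shSufu summed to 693 to 715 CPM with THZ1, against 351 to 391 CPM with DMSO. The 2 held in the SMB56 THZ1 table summed to 13.9 to 15.3 CPM with THZ1, against 27.3 to 30 CPM with DMSO, and the 3 in the GDC-0449 table to 157 to 161 CPM with GDC-0449, against 213 to 221 CPM with DMSO. Astrocyte markers were lower with THZ1 in both lines. Of 4, the 1 held in SMB56-shSufu had 21.2 to 23 CPM with THZ1, against 35.1 to 42.1 CPM with DMSO, and the 2 held in SMB56 summed to 21.5 to 22.3 CPM with THZ1, against 47.6 to 48.4 CPM with DMSO. The 1 held in the GDC-0449 table had 47.6 to 53.9 CPM with GDC-0449, against 46.5 to 47.1 CPM with DMSO. These sums are under TMM scaling and were not taken under mitochondrial scaling, so their direction is uncertain. With THZ1, mitochondrial scaling turned the progenitor marker Atoh1 below 0 in SMB56 but not in SMB56-shSufu. The part of these sums in the member values was not tested.

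Over the 10 libraries, 6841 genes held by all 3 tables with a mean of at least 5 CPM were ranked by their likeness to each member. Racgap1 followed Cdkn1a most closely (Pearson r = 0.994), then Flrt3 and Hspb6 (0.993 and 0.991). Uchl1 was nearest to Cdkn2a (0.992), with Nudt3 at 0.985 and Ufc1 at 0.983. Fam8a1 was nearest to Cdkn2d (0.995), with Dnajb6 at 0.993 and Ppm1a at 0.992. The 10 points fall into 5 groups of like libraries that share line and treatment, so these values describe the pattern only.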

How the data were processed

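RNA of 10 libraries, 2 in each of 5 groups, was sequenced after TruSeq RNA preparation, per the labels' protocols. The authors deposited 3 tables of raw read counts per gene, together with their FPKM (scaled to gene length and depth). The deposited tables also hold the authors' log2 fold changes with their p-values (raw and adjusted), and the SMB56-shSufu table adds a mean signal and 2 scores (a standard error and a test statistic), named per the file headers and not used here. The headers of that table give only treatment and number for the counts, which are whole numbers. Per the submitters' processing notes, tools without stated roles were DESeq2 1.20.0, Cufflinks 2.2.1 and STAR 2.5.3a, and the build was hg19; the gene identifiers are mouse, so genes were matched by symbol and ID, and positions come from GENCODE M21 on GRCm38.

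Tables differ in genes held: 10007 for SMB56 THZ1 (9999 with the authors' adjusted p under 0.05), 10008 for GDC-0449 and 12057 for SMB56-shSufu. In both SMB56 tables the deposited fold is DMSO over treated, so fold changes were recomputed. Each table was fitted on its own with edgeR 4.0.16 in R 4.3.3 (TMM, filterByExpr, quasi-likelihood test, Benjamini-Hochberg over all genes tested, threshold 0.05), and comparisons across tables used the genes held by both. Standard errors come from that fit, and with 2 libraries per group precision is low. Alternatives were other scalings, no filter, DESeq2 1.42.0, limma 3.58.1 on log2(FPKM + 1) and log2(FPKM + 0.1), libraries left out, a replicate block, all 10 libraries in 1 fit, and, added after the tables were seen, 8 libraries of both lines and SMB56 DMSO counts from the THZ1 table. The fits were tested on simulated data. Replicate numbers did not establish pairing (correlation of same-numbered deviations 0.009, 0.0818 and 0.154).

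The members and gene lists were chosen with earlier results of these data known. Members were always named; of each list, the called gene of largest rise and of largest fall per treatment, and Rb1, Cdk2, Cdk4, Cdk6, Skp2, Trp53 and Mdm2 where set beside a member. Likeness took 3 genes per member by Pearson r of log2 CPM (prior count 2), leaving out predicted gene models and mitochondrial genes.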

Additional observations from a re-analysis of the deposited data

Results flagged for a closer look

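Under TMM scaling Cdkn1a rose by a smaller fold with THZ1 in SMB56-shSufu than in SMB56. The difference was -0.9631 on the log2 scale in edgeR's test of it (adjusted p = 0.023). This value ranged from -1.252 to -0.6491 when a library was left out. Mitochondrial scaling, ribosomal protein scaling and either FPKM fit did not call it. Cdkn1a already stood at 145 and 97.4 CPM in SMB56-shSufu under DMSO, against 16.3 and 13.6 CPM in SMB56. The line, the deposited table and its depth cannot be told apart.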

How the results depend on the processing

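Of 391 values of the members under alternatives, 328 kept their direction and side of the threshold, 20 reversed, 22 lost the call and 21 gained it. The causes were not tested. Genes called with THZ1 in SMB56 were 5883 with all 10 libraries, against 9813. Those called with GDC-0449 were 1658 with DESeq2, 145 with all 10 libraries, 140 with 8 libraries of both lines, and 634 and 624 with limma on log2(FPKM + 1) and log2(FPKM + 0.1), against 3633. For the difference between the lines the count was 112 with mitochondrial scaling, 4487 with ribosomal protein scaling, 474 and 450 with FPKM, and 250 to 2859 when a library was left out, against 1504. Between the lines under DMSO it was 8614 with mitochondrial scaling and 1806 to 7465 when a library was left out, against 3948. With GDC-0449 the members called were 2 with mitochondrial scaling, 2 with the replicate block (Cdkn2a at -0.12, edgeR adjusted p = 0.048), 0 with all 10 libraries, which lack Cdkn1b, and 1 to 2 when a library was left out. With THZ1 in SMB56-shSufu they were 2 with mitochondrial scaling and 1 with either FPKM fit. For the difference between the lines they were 0 with mitochondrial scaling, 2 with ribosomal protein scaling, 0 with either FPKM fit and 0 to 2 when a library was left out. Between the lines under DMSO they were 4 with mitochondrial scaling, 4 with ribosomal protein scaling, 4 with the replicate block, which adds Cdkn2a and Cdkn2d, 1 with SMB56 DMSO counts from the THZ1 table and 2 to 4 when a library was left out. The replicate block changed no other member's call. Reversed values with THZ1 in SMB56 were -0.6757 for Cdkn2a and -0.2584 for Cdkn2d under mitochondrial scaling and -0.088 for Cdkn2a under ribosomal protein scaling. Those with GDC-0449 were -0.0318 for Cdkn2d under mitochondrial scaling and 0.0288 and 0.0292 for Cdkn2a in FPKM. In SMB56-shSufu with THZ1, library size scaling gave -0.1601 for Cdkn1b and -0.2451 for Cdkn2b, upper-quartile scaling -0.0018 and ribosomal protein scaling -0.0054 for Cdkn2b. Mitochondrial scaling gave -0.3407 for Cdkn1a, -1.079 for Cdkn1b, -0.5398 for Cdkn2a, -1.1169 for Cdkn2b and -0.2911 for Cdkn2d there. FPKM gave -0.264 and -0.2691 for Cdkn1b and -0.4628 and -0.948 for Cdkn2b, which ranged from -0.0864 to 0.4757 when a library was left out. For the difference between the lines Cdkn2d was 0.5489 with ribosomal protein scaling, and when a library was left out Cdkn2a ranged from -0.1541 to 0.3665 and Cdkn2d from -0.2513 to 0.0609. THZ1 against GDC-0449 was -0.4382 for Cdkn2a and -0.2278 for Cdkn2d under mitochondrial scaling. A lone library left in a group was assumed to vary like the other group. The deposited selection of genes limits which members each comparison holds, and Cdkn2b, at under 7 CPM, was the least precise.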
